A study of Mus musculus with 8 samples.

Results

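Retinoic acid synthesis and response genes were followed in cultured mouse astrocytes, glial cells that support neurons. The set held 9 genes, chosen by symbol from the 21878 genes of the deposited table: the synthesis enzymes Aldh1a1, Aldh1a2 and Aldh1a3, the binding proteins Crabp1 and Crabp2, the degrading enzyme Cyp26b1, the receptors Rara and Rarb, and Rarres2, which encodes chemerin. Polyadenylated RNA was sequenced from 4 libraries of astrocytes treated with a cocktail of IL-1α and TNFα, both inflammatory cytokines, and C1q, the starting protein of the classical complement pathway (called cocktail libraries below), against 4 libraries of untreated astrocytes. All libraries came from wild-type astrocytes isolated from newborn C57BL/6 mouse brain, and the cocktail was used to obtain reactive cells that carry the complement fragment C3d. The labels give no dose and no duration of treatment, and whether each library stands for its own culture or litter is not stated. A p-value here is thus set against library-to-library spread that could be technical only.

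Retinoic acid is made from vitamin A. Retinol is oxidised to retinaldehyde, and retinaldehyde dehydrogenases of the ALDH1A family turn it into retinoic acid, which binds nuclear receptors (RAR, paired with RXR) on target genes. Cellular retinoic acid binding proteins carry it in the cytosol, and enzymes of the CYP26 family oxidise it to inactive forms. Rarb, Cyp26b1, Crabp2 and Dhrs3 are known retinoic acid targets in other cells, and in the developing brain the meninges are a known site of Aldh1a2 expression.

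Promoter sequences are shown for Rarb, because its start site holds the only retinoic acid response element found in this set, and for Aldh1a1 and Aldh1a2, the enzyme pair that changed in opposite directions. Each sequence is the 120 bases before a start site in RefSeq's GRCm38.p6 annotation, read 5′ to 3′ on the strand of the gene. Capitals mark the pair of cores of the response element in Rarb and the letters CCAAT in the others. Of the 2 start sites of Aldh1a1 with a window, the one shown was picked because its window held these letters, and the other window held none.
Rarb, chr14:16575477-16575596, minus strand: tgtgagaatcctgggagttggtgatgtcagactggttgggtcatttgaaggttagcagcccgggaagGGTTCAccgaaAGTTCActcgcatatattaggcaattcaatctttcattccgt
Aldh1a1, chr19:20601848-20601967, plus strand: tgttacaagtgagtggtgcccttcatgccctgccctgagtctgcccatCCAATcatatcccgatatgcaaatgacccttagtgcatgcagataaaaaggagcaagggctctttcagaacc
Aldh1a2, chr9:71215669-71215788, plus strand: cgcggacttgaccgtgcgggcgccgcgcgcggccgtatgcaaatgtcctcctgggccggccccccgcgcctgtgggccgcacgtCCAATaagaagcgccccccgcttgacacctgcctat

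RefSeq windows of 250 bases before to 50 after a start site were at hand for 6 of the 9 genes. The response element was searched as a direct repeat of 2 cores, each being AGGTCA, the variant AGTTCA, the variant GGGTCA or the variant GGTTCA, with a spacing of 1, 2 or 5 bases, on both strands. In Rarb the repeat with a spacing of 5 lay from -53 to -37 relative to the start site, and 0.0974% of all 32851 windows held such a repeat. The windows of Aldh1a1, Aldh1a2, Crabp1, Rara and Cyp26b1 held none of the 3 repeats. The letters CCAAT lay from -72 to -68 of the Aldh1a1 start site shown and from -36 to -32 of the Aldh1a2 start site. A further match lay across the Aldh1a1 start site from -2 to 3, and windows of Rara held the letters on the opposite strand, while 37.4% of all windows held them on either strand. A κB motif, the kind of site that NF-κB binds, was found in the windows of Cyp26b1 and Rara, against 8.46% of all windows. These matches describe letters in a window and not sites in use.

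Levels are FPKM as deposited, that is fragments scaled to gene length and to the total of the library. Totals lay between 19322585 and 20506911 fragments in cocktail libraries and between 19195898 and 20640490 in untreated libraries. C3, the central complement component, stood at 3491 ± 86.4 FPKM in cocktail and 1129 ± 59.3 FPKM in untreated libraries (SD, n = 4 each). The astrocyte marker genes Gfap and Slc1a3 were abundant in every library. Summed levels of 9 astrocyte markers were 845 to 872 FPKM in cocktail and 1051 to 1187 FPKM in untreated libraries. Gfap averaged 188.9 FPKM in cocktail and 412.3 FPKM in untreated libraries. Without Gfap the sums of the other 8 genes overlapped, at 663 to 684 FPKM in cocktail and 679 to 743 FPKM in untreated libraries. Cocktail libraries 1 and 2 lay apart from 3 and 4 on the second principal component over all tested genes, which held 2.11% of the variance. Markers of other cells were also present. The summed level of 11 microglial genes was 38.4, 36.7, 55.8 and 68.2 FPKM in cocktail libraries 1 to 4 and 41.7 to 43.6 FPKM in untreated libraries. In such bulk libraries, fewer cells of a type and less RNA per cell cannot be told apart.

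The retinoic acid genes divided into rises and falls. Aldh1a2, Crabp2 and Rarres2 were higher in cocktail than in untreated libraries, Aldh1a1, Crabp1, Cyp26b1 and Rarb were lower, Rara did not pass the test, and Aldh1a3 was too low to be tested. In the pairs Aldh1a1 and Aldh1a2, and Crabp1 and Crabp2, the paralog scarce in untreated libraries was higher with the cocktail and the other lower. Aldh1a2 and Crabp2 reached the test given below only through the cocktail libraries, so their direction was set by the filter. Aldh1a3, also scarce, averaged 0.157 FPKM in cocktail and 0.299 FPKM in untreated libraries, with overlapping groups. Genes were tested with limma on log2(FPKM + 1) when at least 4 of the 8 libraries reached 1 FPKM, and a Benjamini-Hochberg adjusted p under 0.05 was a call. Of the 8 tested genes, 3 were called higher and 4 lower. The background was high, since 67.7% of all 11845 tested genes were called, 26.6% as higher and 41.1% as lower, and a call alone sets these genes apart little. In 7 of the 8 tested genes no cocktail value lay within the untreated range or the reverse, which held for 62.7% of all tested genes. The median size of change was 1.29 (log2, either direction) over the 8 tested genes and 0.20 over all tested genes. Of the 8, Aldh1a2 and Crabp2 passed the 1 FPKM limit only through the cocktail libraries. The set was chosen with earlier results of these data known, so this difference in medians carries no test.

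**Figure D1:**
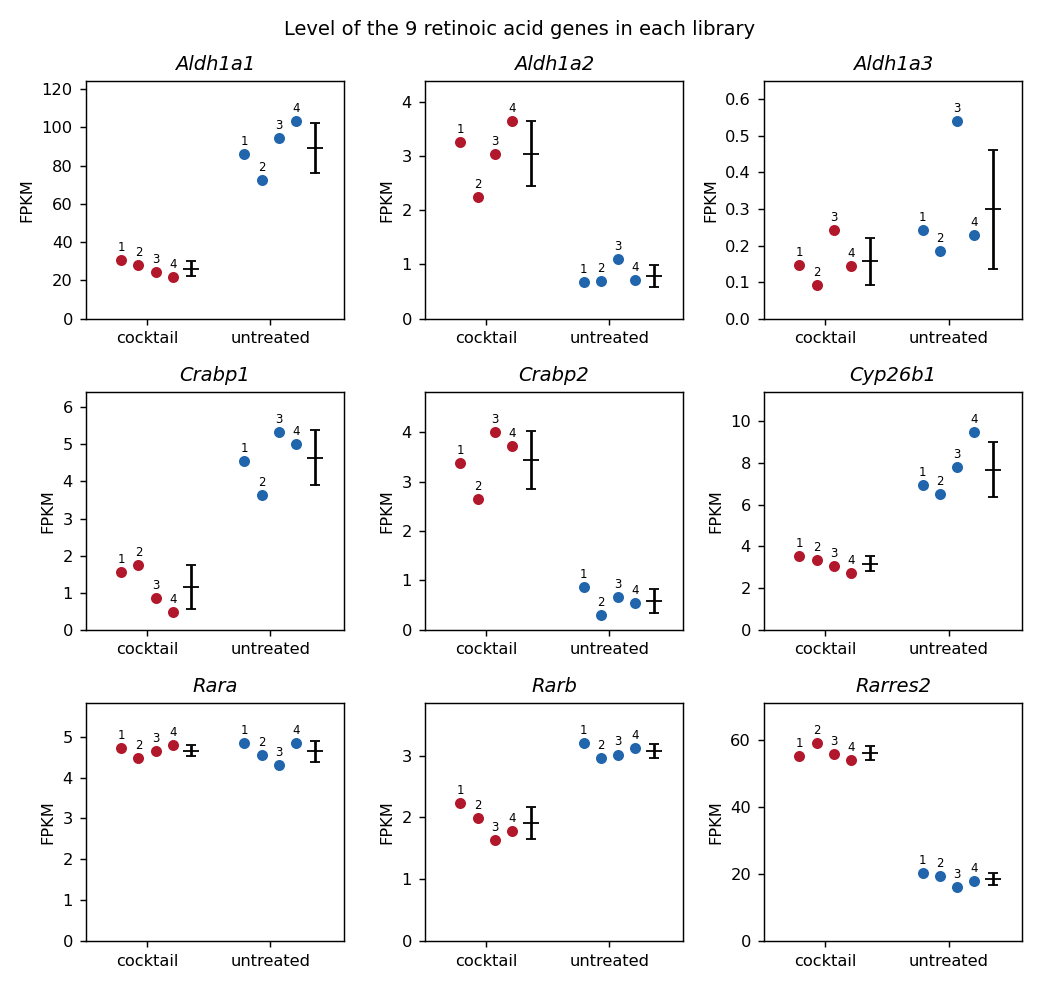
FPKM (y axis, from 0) of each of the 9 genes in the 4 cocktail (red, left) and 4 untreated (blue, right) libraries, with library numbers beside the points and the mean and SD in black. Aldh1a2, Crabp2 and Rarres2 sit higher in all 4 cocktail libraries, Aldh1a1, Crabp1, Cyp26b1 and Rarb sit lower, and Rara and Aldh1a3 overlap.

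Aldh1a1 encodes a retinaldehyde dehydrogenase and lies on chromosome 19 from 20492583 to 20643463, plus strand (GRCm38). It stood at 30.5, 27.9, 24.4 and 21.8 FPKM in cocktail libraries 1 to 4, against 86.3, 72.6, 94.5 and 103.6 FPKM in untreated libraries 1 to 4. The highest cocktail library lay well under the lowest untreated library. Behind these values stood 4256 fragments in the cocktail and 14438 in the untreated group. Mean FPKM was 3.41-fold lower in cocktail libraries, and the log2 change was -1.73 (standard error 0.111; limma, adjusted p = 4.7e-08). Only 2.14% of tested genes had a larger change in either direction. Aldh1a1 ranked above 77.8% of tested genes by mean level in cocktail and above 94.9% in untreated libraries. Its near-identical copy Aldh1a7 averaged 0.593 ± 0.037 FPKM in cocktail and 2.29 ± 0.81 FPKM in untreated libraries (SD, n = 4 each), and fragments could have been shared between them, so both values are uncertain.

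Aldh1a2, the main retinaldehyde dehydrogenase of the early embryo, lies on chromosome 9 from 71215789 to 71296243, plus strand. It stood at 3.25, 2.24, 3.04 and 3.66 FPKM in cocktail libraries 1 to 4, against 0.683, 0.690, 1.10 and 0.706 FPKM in untreated libraries 1 to 4. The groups did not overlap, and untreated library 3 stood above the other untreated libraries. Mean FPKM was 3.83-fold higher in cocktail libraries, from 555 fragments in the cocktail and 143 in the untreated group. Only 1 untreated library, library 3, reached 1 FPKM, so that Aldh1a2 entered the test through the cocktail libraries. The log2 change was 1.17 (standard error 0.109; limma, adjusted p = 1.4e-06). The pseudocount of 1 understates the change of a gene this low. On whole fragments recovered from the FPKM, limma voom gave a log2 change of 1.93 with a standard error of 0.21 (adjusted p = 2.3e-07).

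Aldh1a3, the third enzyme of the family (chromosome 7 from 66390892 to 66427477, minus strand), lay under 1 FPKM in every library. It stood at 0.146, 0.0913, 0.244 and 0.145 FPKM in cocktail libraries 1 to 4 and at 0.243, 0.184, 0.542 and 0.228 FPKM in untreated libraries 1 to 4. These values rest on 6 to 17 fragments per cocktail library and 12 to 37 per untreated library, and the groups overlap. Without the filter on low values the log2 change was -0.16 with a 95% interval from -0.34 to 0.021 (limma, adjusted p = 0.12), so a difference was not detectable at this depth.

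Together the 3 enzymes summed to 29.4 ± 3.57 FPKM in cocktail and 90.4 ± 13.3 FPKM in untreated libraries (SD, n = 4 each). Aldh1a2 made up 10.6% ± 2.87 of that sum in cocktail and 0.885% ± 0.203 in untreated libraries (SD, n = 4 each). Aldh1a1 thus stayed the most abundant of the 3 in every library, at 5.97 to 12.4 times the level of Aldh1a2 in cocktail libraries and 86.0 to 147 times in untreated libraries. FPKM is per gene length, so these levels can be compared between genes, but only roughly. The value of Aldh1a1 is uncertain, since fragments could have been shared with Aldh1a7. The sums rest on genes chosen with their changes known and carry no test.

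**Figure D2:**
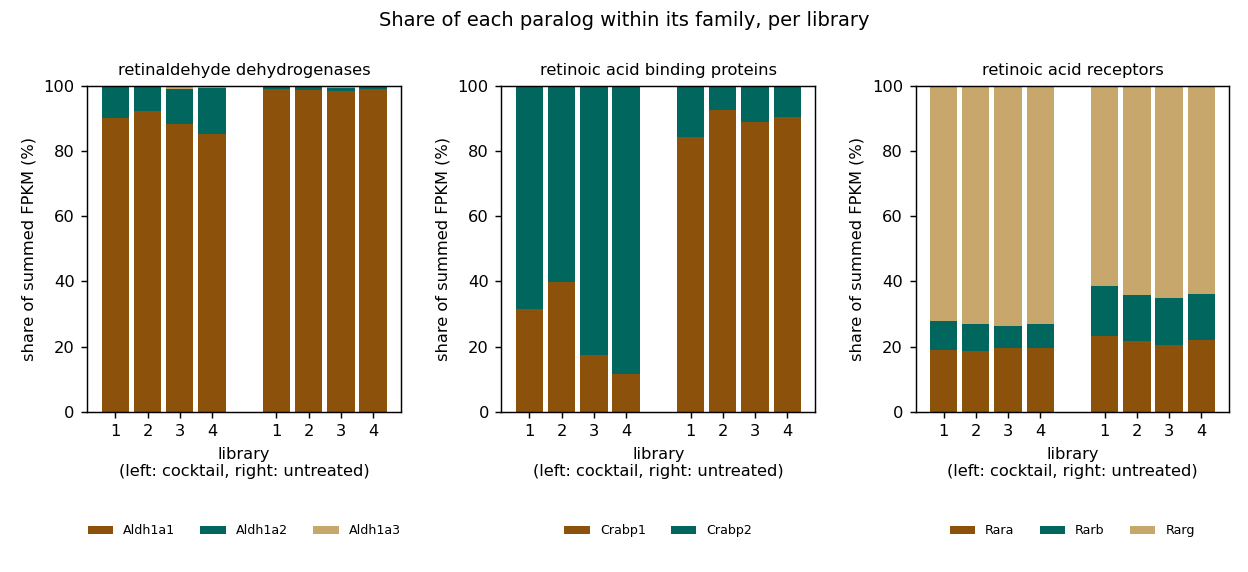
Share of summed FPKM (y axis, percent) taken by each paralog in each library, with cocktail libraries at the left and untreated libraries at the right of each panel. Crabp2 took 60.3% to 88.3% of the binding protein sum in cocktail libraries and 7.37% to 15.8% in untreated libraries, while Aldh1a1 and Rarg were the most abundant of their families in both groups.

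Crabp1 and Crabp2 encode small cytosolic proteins that bind retinoic acid, and Crabp2 is known to pass it on to the receptors. Crabp1 (chromosome 9 from 54764748 to 54773110, plus strand) stood at 1.55, 1.74, 0.851 and 0.492 FPKM in cocktail libraries 1 to 4, against 4.56, 3.64, 5.34 and 5.01 FPKM in untreated libraries 1 to 4. Every cocktail library lay below every untreated one, and cocktail libraries 1 and 2 lay above 3 and 4. Mean FPKM was 4.00-fold lower in cocktail libraries. On the log2 scale the change was -1.42 (standard error 0.171; limma, adjusted p = 1.4e-05), and voom on 74 fragments in the cocktail and 296 in the untreated group gave -2.13 with a standard error of 0.29 (adjusted p = 4.4e-06).

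Crabp2 (chromosome 3 from 87948693 to 87953372, plus strand) stood at 3.37, 2.65, 4.01 and 3.72 FPKM in cocktail libraries 1 to 4, against 0.859, 0.289, 0.664 and 0.538 FPKM in untreated libraries 1 to 4. The groups did not overlap. No untreated library reached 1 FPKM, so that Crabp2 entered the test through the cocktail libraries alone and had to differ to do so. On the log2 scale the change was 1.49 (standard error 0.118; limma, adjusted p = 3.4e-07), and mean FPKM was 5.85-fold higher in cocktail libraries, the largest ratio in the set. Its values rest on 249 fragments in the cocktail and 42 in the untreated group, where single libraries held 5 to 15. Voom on these fragments gave a log2 change of 2.57 with a standard error of 0.29 (adjusted p = 3.7e-07).

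The summed level of both binding proteins was 4.60 ± 0.3498 FPKM in cocktail and 5.23 ± 0.901 FPKM in untreated libraries (SD, n = 4 each), while its make-up turned over. Crabp2 held 74.9% ± 12.8 of the sum in cocktail and 10.99% ± 3.58 in untreated libraries (SD, n = 4 each). In cocktail libraries Crabp2 stood at 1.52 to 7.57 times the level of Crabp1, and in untreated libraries at 0.0796 to 0.188 times.

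Cyp26b1 encodes the enzyme that oxidises retinoic acid in the brain and lies on chromosome 6 from 84571414 to 84593908, minus strand. It stood at 3.55, 3.36, 3.04 and 2.72 FPKM in cocktail libraries 1 to 4, against 6.92, 6.49, 7.83 and 9.50 FPKM in untreated libraries 1 to 4. All cocktail libraries lay below all untreated libraries. Mean FPKM was 2.43-fold lower in cocktail libraries, a log2 change of -1.05 (standard error 0.098; limma, adjusted p = 1.4e-06). Its relatives Cyp26a1 and Cyp26c1 reached at most 0.08 FPKM, and Cyp26c1 was listed at 0 in every library.

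Rarb, the receptor gene with the response element shown above, lies on chromosome 14 from 16430839 to 17082331, minus strand. It stood at 2.23, 1.99, 1.64 and 1.79 FPKM in cocktail libraries 1 to 4, against 3.21, 2.97, 3.02 and 3.12 FPKM in untreated libraries 1 to 4. The groups did not overlap and the untreated libraries lay close together. Mean FPKM was 1.61-fold lower in cocktail libraries, a log2 change of -0.49 (standard error 0.065; limma, adjusted p = 3.0e-05). This was the smallest of the called changes in the set, and 23.7% of tested genes had a larger one. Rarb overlaps Top2b and an antisense gene on the opposite strand, and Rarres2 overlaps Lrrc61 on the opposite strand. Aldh1a1 overlaps the transcript C730002L08Rik and the pseudogene Gm6684, and Aldh1a2 the pseudogene Gm48124, all on the opposite strand. Rara overlaps the small RNA gene Gm22061 on its own strand. The library kit marks strand, but whether the counting used it is not given in the sources used here.

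Rara, which encodes a widely expressed receptor, lies on chromosome 11 from 98927800 to 98974942, plus strand. It stood at 4.71, 4.47, 4.65 and 4.80 FPKM in cocktail libraries 1 to 4 and at 4.85, 4.56, 4.31 and 4.84 FPKM in untreated libraries 1 to 4. The groups overlap. The log2 change was 0.0053 with a 95% interval from -0.098 to 0.11 (limma, adjusted p = 0.93). The interval bounds a change of Rara in either direction and does not show that there was none. Rarg, the third receptor of the family and no member of the set, averaged 17.7 ± 0.177 FPKM in cocktail and 13.5 ± 0.565 FPKM in untreated libraries (SD, n = 4 each), a log2 change of 0.37 (standard error 0.035; limma, adjusted p = 1.6e-06). Rarb therefore made up 7.86% ± 0.930 of the summed receptor level in cocktail and 14.5% ± 0.618 in untreated libraries (SD, n = 4 each).

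Rarres2 encodes chemerin, a secreted attractant of leukocytes first found as a gene induced by the retinoid tazarotene. It lies on chromosome 6 from 48569696 to 48572845, minus strand. Its level was 55.1, 59.2, 56.0 and 54.1 FPKM in cocktail libraries 1 to 4, against 20.2, 19.4, 16.1 and 17.9 FPKM in untreated libraries 1 to 4. The cocktail libraries lay close together and far above the untreated ones. Mean FPKM was 3.05-fold higher in cocktail libraries, with a log2 change of 1.56 (standard error 0.058; limma, adjusted p = 3.6e-10). Rarres2 ranked above 90.6% of tested genes by mean level in cocktail and above 68.7% in untreated libraries. Of the chemerin receptors, Cmklr1 and Gpr1 stayed under 0.3 FPKM in every library, and Ccrl2, which binds chemerin without signalling, averaged 0.620 ± 0.058 FPKM in cocktail and 0.137 ± 0.048 FPKM in untreated libraries (SD, n = 4 each). All 3 were too low to be tested.

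The cocktail libraries differed among themselves in several genes of the set. Aldh1a1, Crabp1, Cyp26b1 and Rarb were each lower in cocktail libraries 3 and 4 than in 1 and 2, and Crabp2 was higher in 3 and 4. The same libraries lay apart on the second principal component over all tested genes, so such a split is not particular to this set. What share of all tested genes shows it was not computed. Without cocktail libraries 1 and 2 the log2 change of Crabp1 was -1.75, and without 3 and 4 it was -1.08. For Aldh1a1 these values were -1.90 and -1.57, and for Rarb -0.59 and -0.39, with every call kept. The microglial sum given above was also higher in cocktail libraries 3 and 4, with 4 of its 6 tested genes higher and 1 lower. Among the microglial genes called higher, Csf1r reached 1 FPKM in 3 cocktail libraries and 1 untreated library. Itgam did so in 4 cocktail and 2 untreated libraries. Both thus entered the test mainly through the cocktail libraries. The part of these cells in the values above was not tested.

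Markers of fibroblasts and leptomeningeal cells, which are known to express retinoic acid enzymes, moved in both directions. Of 12 such genes 9 were tested, of which 3 rose and 3 fell, and their summed level was 108 to 137 FPKM in cocktail and 247 to 270.2 FPKM in untreated libraries. Without Ogn the sums of the other 11 genes overlapped, at 88.4 to 119.7 FPKM in cocktail and 109 to 133 FPKM in untreated libraries. Lum and Pdgfra entered the test through the cocktail libraries. Dcn stood at 8.31 ± 2.58 FPKM in cocktail and 1.45 ± 0.146 FPKM in untreated libraries, Lum at 7.69 ± 1.03 and 0.237 ± 0.063 FPKM in these groups, and Pdgfra at 3.07 ± 0.155 and 0.934 ± 0.111 FPKM (SD, n = 4 each). Col1a1, Col1a2 and Ogn fell, with Ogn at 18.6 ± 1.205 FPKM in cocktail and 136.9 ± 0.946 FPKM in untreated libraries (SD, n = 4 each). Foxc1, a transcription factor of the meninges, averaged 4.32 and 4.79 FPKM in these groups (limma, adjusted p = 0.09). The meningeal transporter gene Slc22a6 was listed at 0 in every library, and Slc6a13 and Slc47a1 reached at most 0.06 FPKM. The part of such cells in the values of Aldh1a2, Crabp2 or any other gene of the set was not tested.

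For neurons, mural cells and endothelium, the difference in the summed markers rested largely on 1 gene each. The summed level of 8 neuronal genes was 52.4 to 59.6 FPKM in cocktail and 140 to 158 FPKM in untreated libraries, with 1 of 4 tested genes higher and 2 lower. Stmn2 made up most of it, and the other 7 genes summed to 16.7 to 18.6 FPKM in cocktail and 22.8 to 25.9 FPKM in untreated libraries. For 8 genes of the oligodendrocyte lineage the sums were 120 to 124 FPKM in cocktail and 212 to 225 FPKM in untreated libraries, with 4 of 5 tested genes lower and Mog listed at 0. Of these, Olig1 averaged 74.8 FPKM in cocktail and 138.6 FPKM in untreated libraries. The other 7 genes summed to 46.2 to 49.3 FPKM in cocktail and 76.1 to 81.1 FPKM in untreated libraries. The 6 mural cell genes summed to 134 to 151 FPKM in cocktail and 569 to 641 FPKM in untreated libraries, with 3 of 4 tested genes lower. Acta2, a smooth muscle actin gene, averaged 110.6 FPKM in cocktail and 580.6 FPKM in untreated libraries, and the other 5 genes summed to 27.1 to 32.3 FPKM in cocktail and 34.9 to 36.01 FPKM in untreated libraries. The 5 ependymal genes summed to 72.3 to 85.1 FPKM in cocktail and 126 to 141 FPKM in untreated libraries, with all 3 tested genes lower. Endothelial genes were scarce, at 1.38 to 1.86 FPKM in cocktail and 4.81 to 5.41 FPKM in untreated libraries over 7 genes, with Cldn5 listed at 0. Only Kdr, a VEGF receptor gene, was tested, at 0.616 FPKM in cocktail and 3.99 FPKM in untreated libraries, and the other 6 genes summed to 0.691 to 1.32 FPKM in cocktail and 0.824 to 1.52 FPKM in untreated libraries. Kdr, the mural gene Rgs5 and the ependymal gene Ccdc153 reached 1 FPKM in the untreated libraries alone and entered the test through them. Of the 8 tested astrocyte markers 2 rose and 6 fell. The part of these cells in the falls of Aldh1a1, Crabp1, Cyp26b1 and Rarb was not tested.

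Of 52 further genes of the retinoid pathway, 26 were tested, and 6 of these rose while 14 fell. That is 76.9% called, beside the 67.7% of all tested genes, with a median log2 change of -0.12 over the 26. After libraries were rescaled by median ratios the same list gave 9 rises and 10 falls, so its split depends on the scaling. Under that rescaling 51.85% of all calls were rises, against 39.3% as deposited. Rbp3, Adh1, Cyp26c1, Hoxb1 and Cdx1 were listed at 0 in every library, where a count of 0 allows up to 3 fragments per library.

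Stra6, the retinol transporter, was too low to be tested and averaged 0.601 FPKM in cocktail and 0.475 FPKM in untreated libraries. Upstream of the ALDH1A enzymes, 6 of 9 tested oxidoreductases fell and none rose, a called share of 66.7% beside the 67.7% of all tested genes. After median-ratio rescaling 4 of the 9 were called lower and 1 higher. Dhrs3, which turns retinaldehyde back into retinol, stood at 8.57 ± 0.592 FPKM in cocktail and 16.4 ± 1.08 FPKM in untreated libraries (SD, n = 4 each), with a log2 change of -0.86 (limma, adjusted p = 4.8e-08). Rdh10, the main enzyme that makes retinaldehyde in the embryo, averaged 67.0 ± 1.29 FPKM in cocktail and 78.6 ± 2.37 FPKM in untreated libraries (SD, n = 4 each; limma, adjusted p = 2.1e-05). The falls of Rdh11, at a log2 change of -0.30, and of Rdh5, at -0.21, were small. The Rdh5 call (limma, adjusted p = 0.034) was lost without any 1 of untreated libraries 1, 2 and 3 or cocktail libraries 1, 2 and 3, with adjusted p-values of 0.052 to 0.10. It was also lost with voom (adjusted p = 0.10), without the filter (limma, adjusted p = 0.057), with median-ratio scaled libraries (limma, adjusted p = 0.092) and after quantile normalization, where the log2 change was -0.054 (limma, adjusted p = 0.56).

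The partner receptor gene Rxra fell by 0.26 on the log2 scale (limma, adjusted p = 0.00051), and Rxrb did not pass the test at 14.9 ± 0.637 FPKM in cocktail and 14.1 ± 0.878 FPKM in untreated libraries (SD, n = 4 each). Receptor cofactors were called in both directions. Nrip1, a corepressor of nuclear receptors that is itself induced by retinoic acid in other cells, stood at 9.15 ± 0.470 FPKM in cocktail and 3.09 ± 0.055 FPKM in untreated libraries (SD, n = 4 each), a log2 change of 1.31 (limma, adjusted p = 1.6e-10). The coactivator gene Ncoa1 fell by 0.43 on the log2 scale (limma, adjusted p = 2.2e-06). Ncoa2, another coactivator gene, fell by 0.21 on the log2 scale (limma, adjusted p = 0.00055).

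Of 12 genes known to be induced by retinoic acid in other cells 6 were tested, of which 1 rose and 4 fell, a called share of 83.3% beside the 67.7% of all tested genes. After median-ratio rescaling 2 were called higher and 2 lower. Tgm2, a transglutaminase gene with a retinoid response, stood at 34.6 ± 1.56 FPKM in cocktail and 14.1 ± 0.661 FPKM in untreated libraries (SD, n = 4 each), a log2 change of 1.23 (limma, adjusted p = 1.5e-10). The transcription factor genes Nr2f2, Meis1, Nr2f1 and Meis2 fell by 0.25, 0.19, 0.19 and 0.14 on the log2 scale (limma, adjusted p = 0.0034, 0.013, 0.0041 and 0.0026). Median-ratio rescaling ended the calls of Meis1 (limma, adjusted p = 0.056) and Meis2 (limma, adjusted p = 0.088), and under it Rarres1 was called higher (limma, adjusted p = 0.044). Ret, a receptor gene under the 1 FPKM limit, averaged 0.352 ± 0.027 FPKM in cocktail and 0.082 ± 0.033 FPKM in untreated libraries (SD, n = 4 each) and was not tested.

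**Figure D3:**
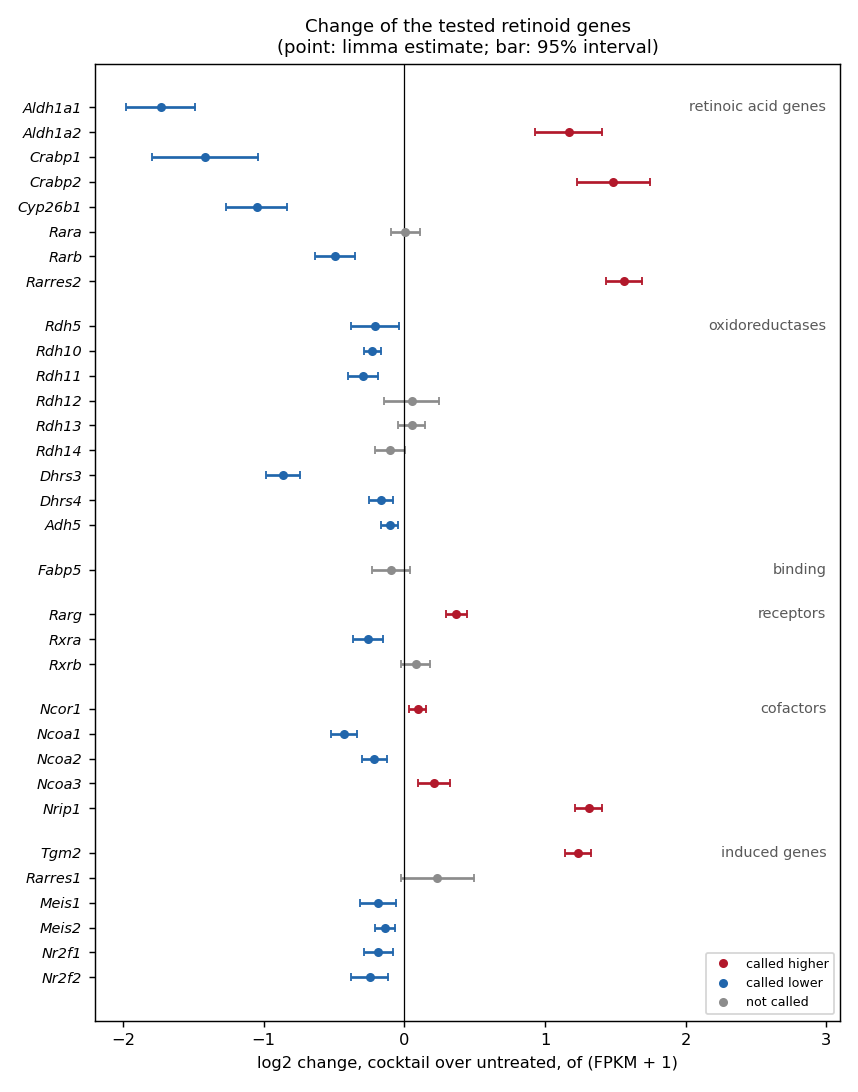
Log2 change of (FPKM + 1), cocktail over untreated (x axis), for the 8 tested retinoic acid genes and 24 of the 26 tested pathway genes, as limma estimates with 95% intervals. Red points were called higher, blue lower and grey not called; Aldh1a1 lies farthest left at -1.73 and Rarres2 farthest right at 1.56.

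Genes with the most similar pattern were sought for Rarres2 and Aldh1a1, the largest rise and fall on the log2(FPKM + 1) scale, by the root mean square difference of log2(FPKM + 1), centred on the untreated mean, over the 8 libraries. By the ratio of mean FPKM and by voom, Crabp2 and Aldh1a2 rose more than Rarres2, and Crabp1 fell more than Aldh1a1. Closest to Rarres2 were Draxin (0.058), Slc43a2 (0.067), Irf1 (0.070), Relb (0.073) and Parp8 (0.085). Draxin encodes an axon guidance protein, Slc43a2 an amino acid transporter, Irf1 an interferon regulatory factor and Relb an NF-κB subunit. Closest to Aldh1a1 were Ccna2 (0.10), Mki67 (0.13), Anln (0.13), Cobl (0.13) and Stmn2 (0.13). Cobl passed the 1 FPKM limit through the untreated libraries alone. Ccna2, Mki67 and Anln are genes of dividing cells, and Stmn2 is a neuronal gene that stood at 38.8 ± 2.89 FPKM in cocktail and 125 ± 6.70 FPKM in untreated libraries (SD, n = 4 each). These values describe likeness of pattern over libraries that share their treatment.

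**Figure D4:**
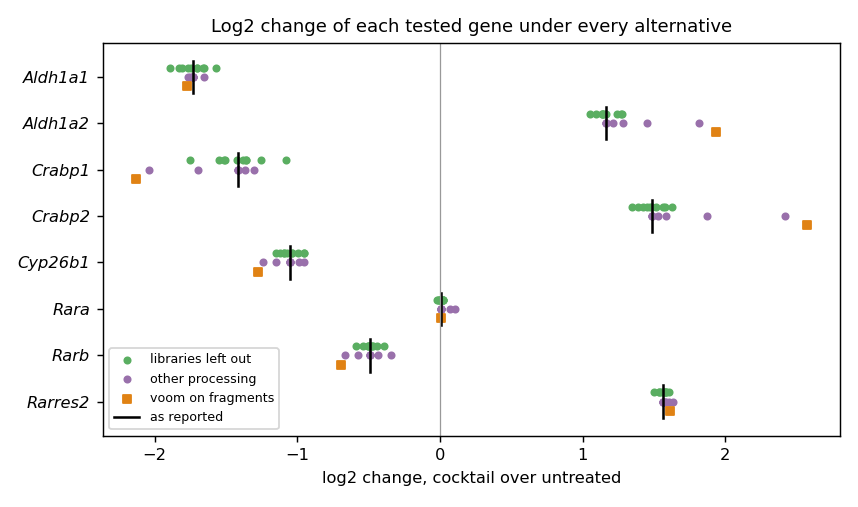
Log2 change (x axis) of each tested gene as reported (black line) and under each alternative: libraries left out (green), other scaling, filters, pseudocounts and variance models (purple) and voom on recovered fragments (orange squares). Apart from Rara, which lies between -0.023 and 0.10, no gene changes side. The called genes are larger with smaller pseudocounts and with voom, most of all Aldh1a2, Crabp1 and Crabp2.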

How the data were processed

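The authors deposited FPKM values (fragments scaled to gene length and library total) for 21878 genes in 8 libraries. DESeq and the mm10 build are named in the submitters' processing notes. Which aligner and counter were used is not given in the sources used here. Per the labels' protocols, TRIzol RNA went into a stranded mRNA kit. Groups came from the sample titles, since 3 cocktail treatment labels spell C1q with other digits.

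The 11845 genes that reached 1 FPKM in 4 or more of the 8 libraries entered limma 3.58.1 in R 4.3.3. The model used log2(FPKM + 1), a trend of variance on mean level and no covariate, with 2-sided Benjamini-Hochberg adjusted p-values over all of them and a threshold of 0.05. The pseudocount of 1 understates changes of genes at low FPKM.

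The FPKM of each gene had whole-number ratios across libraries (relative tolerance 1e-11; the few most abundant genes by a whole gene length, tolerance 1e-05). Whole fragments were so recovered for 16557 of the 16557 genes seen in 2 or more libraries, with between 99.86% and 99.89% of each library total, and limma voom was fitted to them as an alternative. The steps were tested on simulated data. The limit for a count of 0 was set at 3 fragments, equal to 0.0727 to 0.0781 FPKM at a length of 2 kb, and covers counting error only.

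Positions, promoter windows and gene numbers are from RefSeq's GRCm38.p6, the assembly that mm10 names, matched by NCBI gene number for all 9 genes; strands are from GENCODE M21. Same-numbered libraries of the groups had correlations of -0.044, 0.078, 0.086 and -0.0071 of their deviations from the group means.

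The genes, the pathway and marker lists and the tests were chosen with earlier results of these data known. Named genes are the 9 genes with values in every library, up to 4 called genes with the largest change per pathway list, the 5 genes most like the largest rise and the largest fall, C3, Lcn2 and Gfap as checks, and marker genes. Other genes, such as Aldh1a7, Rarres1, Rdh12, Rxrb, Ret, Stra6, the chemerin receptors and genes at 0, were named after their values were seen. The values of 2 pathway genes are not reported here, though list counts include them. Alternatives were other pseudocounts, filters, scalings, variance models, a replicate block, each library left out, cocktail pairs left out, and voom.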

Additional observations from a re-analysis of the deposited data

Results flagged for a closer look

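In 70 groups of 4 libraries, from the 9 genes and the 26 tested pathway genes, 4 libraries stood apart from the other 3 by more than Dixon's 95% critical value, where chance gives about 1 in 20 groups. Aldh1a2 stood at 1.10 FPKM in untreated library 3, against 0.683 to 0.706 FPKM in the other untreated libraries. Aldh1a3 stood at 0.542 FPKM in the same library, against 0.184 to 0.243 FPKM in the others. Without untreated library 3 the log2 change of Aldh1a2 was 1.24, beside 1.17 with it. Nrip1 stood at 3.17 FPKM in untreated library 4, against 3.06 to 3.07 FPKM in the others. Rarres1, a retinoid-induced gene, stood at 4.02 FPKM in untreated library 4, against 2.25 to 2.43 FPKM in the others, and without that library its log2 change was 0.38 (limma, adjusted p = 0.00027), beside 0.24 with it (limma, adjusted p = 0.098).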

How the results depend on the processing

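The 7 called retinoic acid genes kept their direction and their call under every alternative that tested them, with the highest adjusted p of 0.00090 for Rarb. The counts of 3 higher and 4 lower were 1 and 2 when a mean of at least 5 FPKM was required, because fewer genes were then tested, and were the same with each library left out. The log2 change of Rara was between -0.023 and 0.023 with each library left out and -0.011 without cocktail libraries 3 and 4. It was 0.069 with median-ratio rescaling (limma, adjusted p = 0.21) and 0.10 after quantile normalization (limma, adjusted p = 0.067). Rara was called under no alternative. Rdh12, which was not called, gave -0.010 without untreated library 2 and up to 0.12 with each other library left out. With each library left out, 2942 to 3059 genes were higher and 4664 to 4765 lower over all genes, and 6 to 7 and 13 to 15 in the pathway list. Of 58 single genes recomputed, 45 kept direction and call throughout; the cause was not tested for the others. With the replicate number as a block, no retinoic acid gene changed its call, the list counts were 7 higher and 14 lower, and Rarres1 was called (limma, adjusted p = 0.032). The correlations given under processing were small, and with 4 libraries per group they cannot show whether the numbers pair the libraries. Depth limits Aldh1a3, at 6 to 37 fragments per library, and Crabp2 in untreated libraries.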
